A study of Homo sapiens with 8 samples.

Results

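The nuclear genes of mitochondrial complex I whose symbols start with NDUF were described in the human neuroblastoma cell line SH-SY5Y, after expression of the orphan nuclear receptor ERRg. The members were the protein-coding genes of the deposited count table whose symbol begins with NDUF, which gave 48 of 67060 genes. They comprise 15 NDUFA genes with NDUFAB1 among them, 11 NDUFB, 3 NDUFC, 8 NDUFS and 3 NDUFV genes, and 8 NDUFAF assembly factors. The choice used symbols alone and no measured value.

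RNA sequencing of total RNA depleted of ribosomal RNA compared 4 ERRg libraries with 4 GFP libraries. ERRg cells received an adenovirus carrying BioID-Flag-Esrrg, in which Flag-tagged ERRg is fused to BioID, a biotin ligase made for proximity labelling. GFP cells received the same ligase fused to green fluorescent protein that carries a signal for nuclear import (BioID-GFP-NLS). Both groups thus carried an adenovirus and the ligase, given as 0.5 ul to cells at 80% confluence in 10 cm plates and left for 48 h, and cells without virus were not analysed here. The labels call the cells neuronal progenitors. Nothing in them ties each replicate to a culture of its own, so the p-values below reflect the spread among these libraries, part or all of which may be technical.

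Complex I passes electrons from NADH to ubiquinone in the inner mitochondrial membrane and pumps protons as it does so. Its matrix arm holds the N module, where NADH is oxidised, and the Q module, where ubiquinone is reduced, and its membrane arm holds the proximal and distal pump modules. Core subunits carry out catalysis, 7 of them encoded in the nucleus and 7 in mitochondrial DNA, accessory subunits surround them, and assembly factors leave the finished enzyme. ERRg binds DNA as a monomer at an extended half-site, TNAAGGTCA, and is known from mouse heart as a regulator of oxidative phosphorylation genes.

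ESRRG, the gene the virus delivers, stood at 711 to 888 CPM in ERRg libraries and at 32.7 to 37.1 CPM in GFP libraries (exact two-sided permutation p = 0.0286, the smallest that 70 arrangements allow), where CPM is counts per M gene reads, scaled with TMM factors. Reads assigned to genes numbered 21.02 to 23.01 M per ERRg library and 27.67 to 35.52 M per GFP library. A share of 46.7% ± 1.31 of ERRg reads and 20.9% ± 3.58 of GFP reads lay outside annotated exons (SD, n = 4 each), without overlap. ERRg libraries 1 and 2 and ERRg libraries 3 and 4 were closer to each other (chi-square per gene of 2.90 and 5.02) than any other pair within a group (9.87 to 41.2). Of 8 sympathoadrenal markers, 6 exceeded 1 CPM in both groups, with a summed level of 350 to 414 CPM in ERRg libraries and 590 to 679 CPM in GFP libraries, while CHGA and TH were listed at 0. Fibroblast markers, all 6 of them over 1 CPM in both groups, summed to 133 to 149 CPM in ERRg and 286 to 324 CPM in GFP. Epithelial markers summed to 171 to 242 CPM in ERRg and 236 to 316 CPM in GFP, most of it from KRT18, with CDH1 at 5 reads or fewer per library. Leukocyte and endothelial markers each summed to at most 2.32 CPM in every library. The part that these differences play in the results was not tested, and in bulk RNA fewer cells of a type and less RNA per cell cannot be told apart.

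The promoters of 3 members are shown, and these were picked with their calls known. NDUFB4 was the only member of 40 with a promoter window that held the extended half-site, and it was lower in each of the 23 fits described at the end. NDUFA5 and NDUFAF7 were higher in each of them, and their windows printed here hold no match. Whether a match goes with the direction of change was not tested. Each line gives the 250 bases before the RefSeq start nearest to the GENCODE 29 gene start on GRCh38.p14, 5′ to 3′ on the gene's strand, in lower case, with matches to TNAAGGTCA in capitals.
NDUFB4 promoter, chr3:120596086-120596335, plus strand: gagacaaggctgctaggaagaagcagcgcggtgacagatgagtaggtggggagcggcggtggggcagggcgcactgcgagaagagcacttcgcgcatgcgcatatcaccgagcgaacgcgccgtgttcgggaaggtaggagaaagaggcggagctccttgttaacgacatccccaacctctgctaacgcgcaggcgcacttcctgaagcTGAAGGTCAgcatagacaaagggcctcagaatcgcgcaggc
NDUFA5 promoter, chr7:123557819-123558068, minus strand: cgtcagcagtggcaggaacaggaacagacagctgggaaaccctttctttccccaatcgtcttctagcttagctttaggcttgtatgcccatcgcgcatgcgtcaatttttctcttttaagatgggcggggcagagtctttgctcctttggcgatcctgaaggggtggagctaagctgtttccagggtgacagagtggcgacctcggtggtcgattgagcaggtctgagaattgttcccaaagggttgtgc
NDUFAF7 promoter, chr2:37231408-37231657, plus strand: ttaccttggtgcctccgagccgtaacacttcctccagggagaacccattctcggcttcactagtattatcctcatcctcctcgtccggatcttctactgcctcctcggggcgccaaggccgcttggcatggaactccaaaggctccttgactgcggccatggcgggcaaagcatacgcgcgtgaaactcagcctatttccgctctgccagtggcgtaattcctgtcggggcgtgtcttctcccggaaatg

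The NDUFB4 match spans positions -41 to -33 from the RefSeq start. Promoter windows of 300 bases, from 250 before to 50 after a start, were at hand for 40 of the 48 members, and both strands were searched. The extended half-site lay in a window of 1 of these 40 genes (2.5%), against 319 of 27305 genes (1.17%) in the whole RefSeq table. Its core AGGTCA, which every extended match contains, lay in windows of 9 of 40 members (22.5%), against 16.5% of all genes. The 9 are NDUFA1, NDUFA2, NDUFA5, NDUFAF3, NDUFB3, NDUFB4, NDUFC1, NDUFS6 and NDUFS7. In NDUFA5 the core match lies at RefSeq starts upstream of the GENCODE 29 gene and not in the window printed above. A match is a description of these letters and not a binding site, and a window without a match says nothing of the receptor.

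Of the 48 members, 44 passed the filter on low counts and were tested. NDUFS1, the largest core subunit and carrier of several iron-sulfur clusters of the N module, and NDUFA6, an accessory N module subunit, were listed at 0 in all 8 libraries. The widely expressed genes TUBB and FLOT1 are at 0 in this table too, so the zeros of NDUFS1 and NDUFA6 were not read as absence of the RNA. NDUFA3, a small membrane arm subunit, had 2 to 13 reads per library. The readthrough gene NDUFC2-KCTD14 had 0 to 2 reads.

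Most complex I genes were lower in ERRg libraries on the TMM scale. By edgeR's quasi-likelihood test over 21993 genes (Benjamini-Hochberg adjusted p under 0.05), 33 of 44 tested members (75.0%) were lower in ERRg, against 35.9% of all genes tested, and 6 (13.6%) were higher, against 38.8% (74.7% of all genes were called in either direction). Among the coding genes of this fit the shares were 50.6% lower and 29% higher. The median log2 fold change, ERRg over GFP, was -0.84 for the tested members, 0.09 for all genes and -0.30 for coding genes. No ERRg library overlapped a GFP library for 35 members that lay below, against 34.6% of all genes, and for 6 that lay above, against 33.9%. Upper-quartile factors and library totals move every gene alike and put the median of all genes at 0.40 and 0.50. With library totals, which give plain shares of gene reads, 11 members were higher and 25 lower, at a median of -0.44. In that fit 11791 of 21993 genes were higher and 5383 lower. When the fit was repeated on the 13426 coding genes alone, 10 members were higher and 28 lower. In that refit 5471 coding genes were higher and 5320 lower.

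The summed level of the 48 members was 1921, 1860, 2107 and 1942 CPM in ERRg libraries, against 3143, 3747, 3097 and 3142 CPM in GFP libraries. Every ERRg library lay below every GFP library. By class, as mean ± SD of 4 libraries, NDUFB genes together held 498 ± 36.8 CPM in ERRg libraries and 965 ± 107 CPM in GFP libraries. NDUFS genes held 438 ± 37.3 CPM in ERRg libraries and 835 ± 90.7 CPM in GFP libraries, and assembly factors 228 ± 6.33 CPM in ERRg libraries and 293 ± 16.5 CPM in GFP libraries. Pseudogenes with NDUF symbols, 63 in the table, together held 15.3 ± 1.07 CPM in ERRg and 8.87 ± 1.44 CPM in GFP. Reads that fit a gene and a near-identical pseudogene are not in these counts, so members with such copies are uncertain to that extent.

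**Figure D1:**
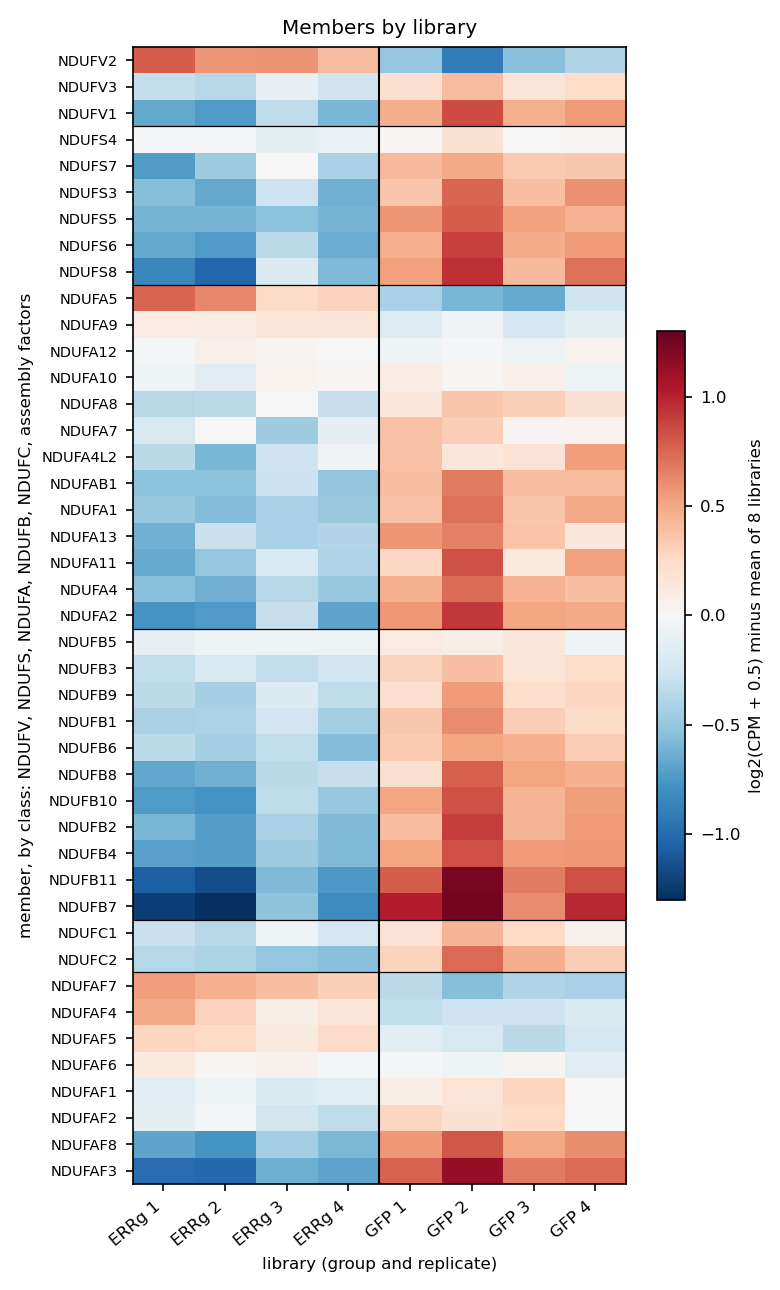
Level of 43 tested members in each library as log2(CPM + 0.5) minus its mean over the 8 libraries, with ERRg libraries left of GFP libraries and members by class. Most rows are blue in ERRg and red in GFP, and NDUFV2, NDUFA5 and NDUFAF7 show the opposite.

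The fold changes followed the base composition of the transcripts. Across the 44 tested members, Pearson's r between the log2 fold change and GC content of the longest transcript was -0.70, and across 13426 coding genes it was -0.66. This is a description over genes that share the same 8 libraries. The 15 members of lowest GC content (35.0% to 45.2%) had a median of -0.13, with 6 higher and 6 lower. All 15 of highest GC content (53.8% to 65.0%) were lower, with a median of -1.17. Coding genes had medians from 0.62 to 0.02 in the GC deciles centred on 36.9% to 44.1% GC. In the deciles centred on 56.3% to 64% GC their medians ran from -0.97 to -1.33. Calls of coding genes were not counted by GC content. Within each of the 4 ERRg libraries a member's deviation from its mean fell with GC content (r from -0.72 to -0.52, n = 44), and within each GFP library it increased (r from 0.57 to 0.70). Members with a longer gene span also had higher fold changes (r = 0.59).

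Each member is therefore given with a second value from a fit with offsets, in which a smooth trend of the counts on GC content, transcript length and gene span, estimated per library over coding genes, is taken out. Offsets also remove any true change that runs along these properties, and the share of reads outside exons separates the groups as well, so technical and biological sources of the trend cannot be told apart. With the offsets 21 of 44 members (47.7%) were lower, against 41.7% of coding genes, and 10 (22.7%) were higher, against 30.2% (72% of coding genes were called in either direction). Their median log2 fold change was -0.09, beside -0.08 over all coding genes, and r with GC content became 0.20. Of the 33 members lower with TMM alone, 19 stayed lower with offsets, 9 lost the call and 5 were called higher. Of the 6 members higher with TMM alone, 4 stayed higher and 2 lost the call.

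**Figure D2:**
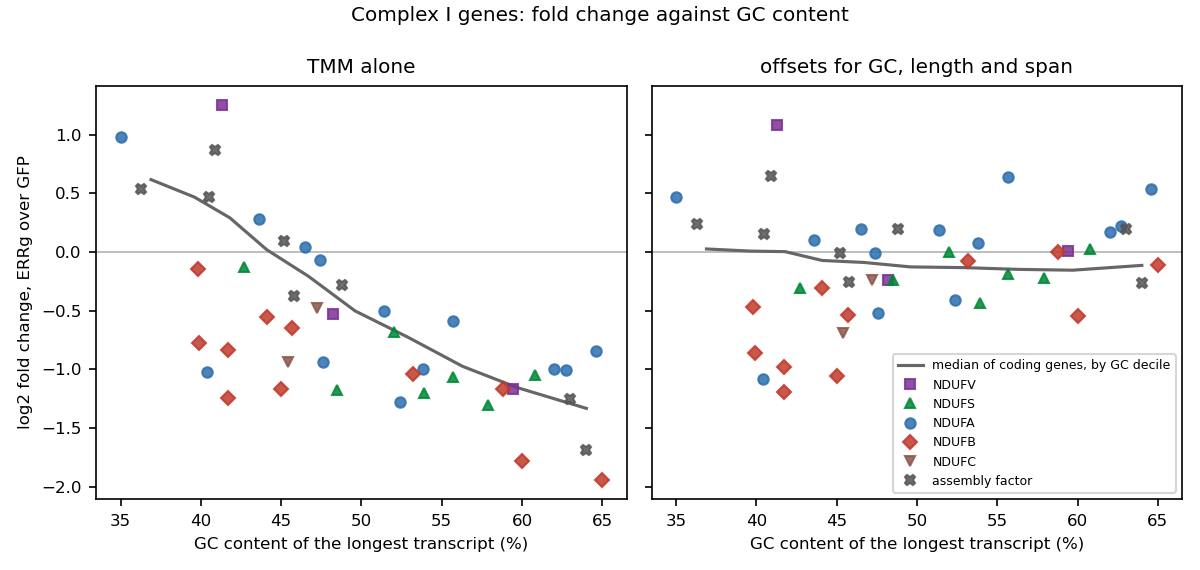
Log2 fold change, ERRg over GFP, of the 44 tested members against GC content of the longest transcript, with TMM alone on the left and with offsets on the right, marked by class. The line is the median of coding genes by GC decile; with TMM alone the members follow it downwards, and with offsets the line is nearly flat and several NDUFB genes lie below it.

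The core subunits were lower with TMM alone except for NDUFV2. Of the 6 tested, 5 (83.3%) were lower and 1 was higher with TMM alone, against 50.6% and 29% of coding genes. With offsets 2 (33.3%) were lower and 1 (16.7%) was higher, against 41.7% and 30.2% of coding genes. NDUFV1 holds the flavin that takes electrons from NADH (chr11:67605653-67612554, plus strand; positions are those of GENCODE 29 on GRCh38). It stood at 45.5, 43.1, 57.3 and 47.6 CPM in ERRg libraries, against 100, 130, 99.6 and 106 CPM in GFP libraries. The groups do not overlap, at -1.17 on the log2 fold change scale (SE 0.11, edgeR adjusted p = 5.04e-09). With offsets it was 0.01 (SE 0.06, adjusted p = 0.851) and had no call. It was called lower in 20 of the 23 fits described at the end, the fit with offsets for GC alone among them. The call was lost only where the offsets also took out length and span.

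NDUFV2, the partner of NDUFV1 and carrier of an iron-sulfur cluster, was the member that rose most (chr18:9102630-9134345, plus strand). Its level was 12.4, 10.6, 10.7 and 9.43 CPM in ERRg libraries, against 4.78, 3.48, 4.64 and 5.19 CPM in GFP libraries. All ERRg libraries were above all GFP libraries, by a log2 fold change of 1.26 (SE 0.14, edgeR adjusted p = 6.79e-08), and of 1.08 (SE 0.11, adjusted p = 1.01e-07) with offsets. In GENCODE 29 another gene on the same strand, AP005263.1, overlaps 82.9% of the principal transcript and leaves 159 bases of it. Over all 2711 annotated exon bases of NDUFV2 the overlap is 28.4%. Reads that fall in more than 1 gene are not counted for either gene, and their share was 5.44% ± 0.415 in ERRg libraries and 12.1% ± 1.46 in GFP libraries (SD, n = 4 each). The part that this overlap plays in the NDUFV2 result was not tested.

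The Q module core subunits NDUFS3, NDUFS7 and NDUFS8 fell with TMM alone. NDUFS3, which has no redox centre of its own, had 31.7, 29.4, 38.9 and 30.2 CPM in ERRg libraries, against 60.4, 79.5, 61.5 and 71.0 CPM in GFP libraries. It kept its direction in both fits, with -1.07 (SE 0.11, edgeR adjusted p = 2.60e-08) with TMM and -0.19 (SE 0.07, adjusted p = 0.0232) with offsets.

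NDUFS8, a ferredoxin-like subunit with iron-sulfur clusters (chr11:68030617-68036644, plus strand), had 33.9, 30.0, 54.0 and 40.9 CPM in ERRg libraries, against 88.7, 119, 82.0 and 101 CPM in GFP libraries. With TMM it fell most of the NDUFS genes, at a log2 fold change of -1.30 (SE 0.15, edgeR adjusted p = 8.34e-08), and ERRg library 3 was the highest of its group. With offsets the value was -0.22 (SE 0.08, adjusted p = 0.0262), and NDUFS6 was lowest at -0.43. NDUFS7 holds the cluster that hands electrons to ubiquinone and was scarcely counted, at 0.699, 0.939, 1.48 and 0.976 CPM in ERRg libraries, against 2.14, 2.28, 2.01 and 2.02 CPM in GFP libraries. Even so the groups are apart at -1.05 (SE 0.23, adjusted p = 3.40e-04), while the value with offsets was 0.03 (SE 0.20, adjusted p = 0.898). Genes on the opposite strand overlap 37.9% of the NDUFS7 principal transcript.

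**Figure D3:**
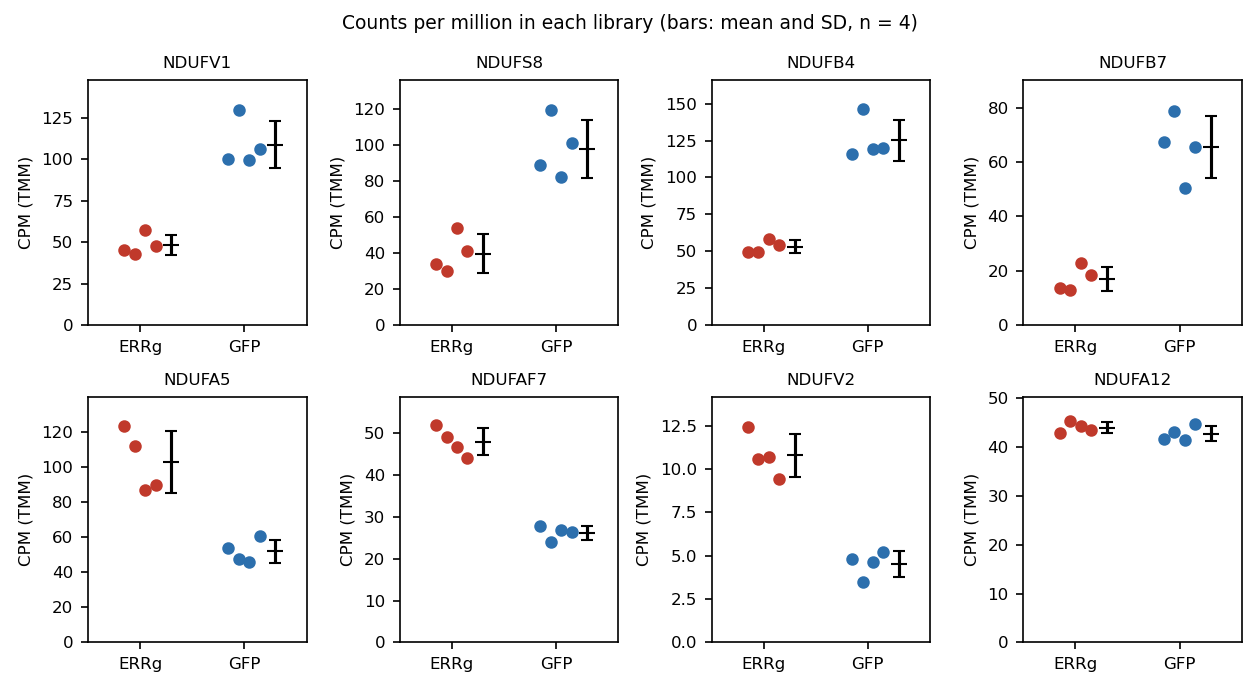
TMM-scaled CPM of 8 members in each ERRg (left, red) and GFP (right, blue) library, with the mean and SD of 4 libraries beside the points. NDUFV1, NDUFS8, NDUFB4 and NDUFB7 lie lower in ERRg without overlap, NDUFA5, NDUFAF7 and NDUFV2 lie higher without overlap, and the groups of NDUFA12 overlap.

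The other NDUFS genes are accessory subunits, most of them at or near the N module. NDUFS4, which helps to hold the N module in place, had 31.3, 31.3, 28.9 and 29.6 CPM in ERRg libraries, against 32.2, 36.3, 31.5 and 32.1 CPM in GFP libraries. It was the highest in fold change of its class at -0.13 (SE 0.09, edgeR adjusted p = 0.205) and had no call, while the offsets gave -0.30 (SE 0.07, adjusted p = 4.19e-04). NDUFS6, a zinc-binding N module subunit, fell by 1.20 with TMM and by 0.43 with offsets on the log2 scale. NDUFS5, a membrane arm subunit on the side of the intermembrane space, fell by 1.18 and by 0.24 in these fits. It was also the member of highest level per length, at 192 ± 4.62 RPKM in ERRg and 435 ± 44.7 RPKM in GFP, where RPKM is CPM per kilobase of annotated exon.

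Per length, NDUFB10 ranked next in both groups, at 69.1 ± 10.3 RPKM in ERRg and 155 ± 19.1 RPKM in GFP. The levels of NDUFS5 and NDUFB10 do not overlap within mean and SD in either group. In ERRg NDUFA1 and NDUFA4 were also high, at 53.6 ± 2.06 and 51.2 ± 3.78 RPKM, which do not differ beyond their spread. NDUFB7 ranked 9 in ERRg at 32.1 ± 8.58 RPKM and 3 in GFP at 123 ± 21.7 RPKM. The ranks depend on how many exons are annotated. NDUFB7 has 531 annotated exon bases, all in its principal transcript, while NDUFB4 has 1889, against 671 in its principal transcript.

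In the N module as a whole, 6 of 9 tested subunits (66.7%) were lower and 1 higher with TMM, against 50.6% and 29% of coding genes. With offsets 5 (55.6%) were lower and 3 (33.3%) higher, near the 41.7% and 30.2% of coding genes. NDUFV3, a small accessory partner of the flavin subunit, fell by 0.52 with TMM and by 0.24 with offsets on the log2 scale. NDUFA2, a thioredoxin-like N module subunit (chr5:140638740-140647785, minus strand), fell most of the NDUFA genes with TMM. It had 10.3, 10.5, 14.4 and 10.9 CPM in ERRg libraries, against 26.7, 34.3, 25.7 and 25.3 CPM in GFP libraries. ERRg library 3 and GFP library 2 stood above their own groups, and the groups did not overlap. Its log2 value was -1.28 (SE 0.13, edgeR adjusted p = 1.27e-08), and -0.41 (SE 0.08, adjusted p = 1.82e-04) with offsets. NDUFAB1, the mitochondrial acyl carrier protein, also fell in both fits, by 0.94 and by 0.52.

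NDUFA12, which binds late in assembly at the junction of the N and Q modules, had 42.8, 45.4, 44.3 and 43.4 CPM in ERRg libraries, against 41.6, 43.0, 41.5 and 44.7 CPM in GFP libraries. The groups overlap, and its log2 fold change of 0.04 (SE 0.08, edgeR adjusted p = 0.650) was not called, although 0.20 (SE 0.06, adjusted p = 0.00395) with offsets was. NDUFA7, another N module subunit, had 0.782, 0.977, 0.575 and 0.854 CPM in ERRg libraries, against 1.43, 1.35, 1.01 and 1.03 CPM in GFP libraries. Its call changed sign between the fits, at -0.59 (SE 0.26, edgeR adjusted p = 0.0439) with TMM and 0.64 (SE 0.25, adjusted p = 0.0316) with offsets. The TMM call was lost without ERRg library 1, 3 or 4 and without GFP library 1 or 2. The gene AC010323.1 overlaps 75.9% of the NDUFA7 principal transcript on the same strand and leaves 145 bases of it. Over all 1413 annotated exon bases of NDUFA7 the overlap is 32.3%.

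The Q module accessory subunits rose with TMM alone, where its core subunits fell. NDUFA5, a small Q module subunit (chr7:123536997-123558255, minus strand), had 123, 112, 86.5 and 89.4 CPM in ERRg libraries, against 53.9, 47.7, 45.9 and 60.4 CPM in GFP libraries. Every ERRg library was above every GFP library, and ERRg libraries 1 and 2 were the highest. Its log2 value was 0.98 (SE 0.12, edgeR adjusted p = 1.89e-07) with TMM and 0.47 (SE 0.06, adjusted p = 1.88e-06) with offsets, and the gene had the lowest GC content of the members at 35.0%. NDUFA9, a nucleotide-binding subunit next to the ubiquinone site, rose by 0.28 (SE 0.10, adjusted p = 0.0122) with TMM, a call that was lost without GFP library 1, 3 or 4. With offsets NDUFA9 was at 0.10 (SE 0.08, adjusted p = 0.271).

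**Figure D4:**
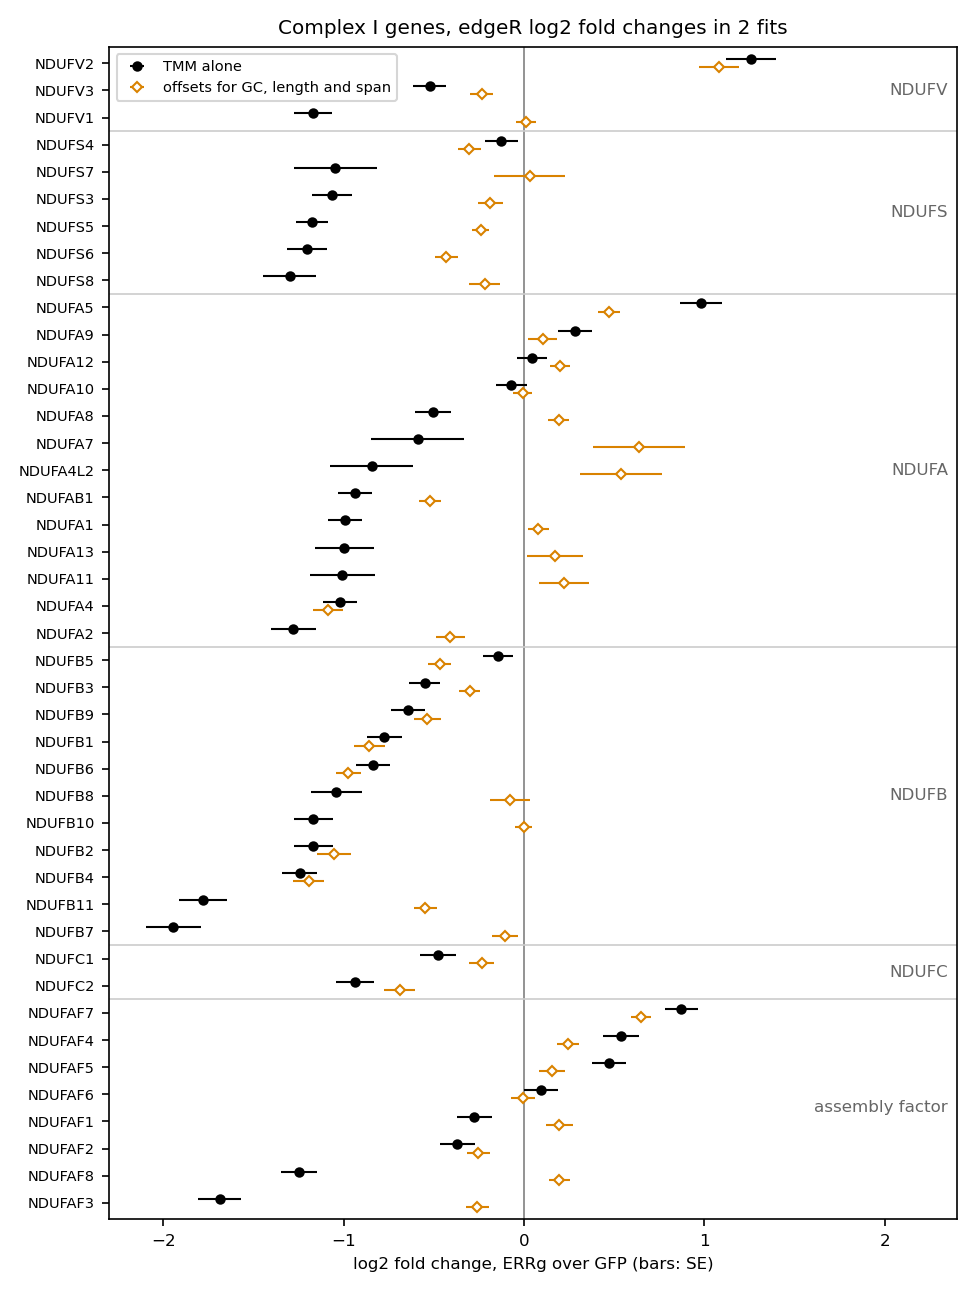
Log2 fold change, ERRg over GFP, with its SE for 43 tested members by class, with TMM alone (black) and with the offsets (orange). NDUFB genes lie at or below 0 in both fits, most NDUFA and NDUFS genes move towards 0 with offsets, and NDUFV2, NDUFA5 and NDUFAF7 lie above 0 in both.

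In the proximal module of the membrane arm 12 of 14 tested subunits (85.7%) were lower and none higher with TMM, against 50.6% and 29% of coding genes. With offsets 8 (57.1%) were lower and 1 higher, against 41.7% and 30.2% of coding genes. In the distal module all 5 were lower with TMM, and 3 (60.0%) were lower with offsets, beside 55.6% of N module subunits. No test compared the modules. By symbol, 10 of 11 NDUFB genes were lower and none higher with TMM, with a median log2 fold change of -1.04, and 8 were lower and none higher with offsets, with a median of -0.54. No separate test compared NDUFB genes with the rest.

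NDUFB7, a distal subunit held by disulfide bonds on the intermembrane side, fell most of all members with TMM (chr19:14566078-14572062, minus strand). It had 13.8, 13.0, 22.8 and 18.5 CPM in ERRg libraries, against 67.4, 78.7, 50.6 and 65.6 CPM in GFP libraries. ERRg libraries were 3.85-fold lower, a log2 fold change of -1.95 (SE 0.15, edgeR adjusted p = 6.14e-10), without overlap. With offsets the value was -0.11 (SE 0.07, adjusted p = 0.189), and its GC content of 65.0% was the highest among the tested members. NDUFB11, encoded on the X chromosome and part of the proximal module, had a GC content of 60.0% and fell in both fits, at -1.78 with TMM and -0.55 with offsets on the log2 scale.

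NDUFB4, whose promoter holds the extended half-site shown above, fell alike in both fits (chr3:120596309-120602500, plus strand). This proximal module subunit had 49.5, 49.3, 58.5 and 54.5 CPM in ERRg libraries, against 116, 146, 119 and 120 CPM in GFP libraries. The groups are well apart, at -1.24 (SE 0.10, edgeR adjusted p = 5.87e-10) with TMM and -1.20 (SE 0.08, adjusted p = 9.58e-10) with offsets. With offsets it was the lowest of the 44 members. The distal subunit NDUFB2 and the proximal subunits NDUFB6 and NDUFB1 also changed little between the fits. NDUFB2 fell by 1.17 with TMM and by 1.06 with offsets, NDUFB6 by 0.84 and by 0.98, and NDUFB1 by 0.78 and by 0.86. These 4 genes have transcripts of 39.9% to 45.0% GC. Genes on the opposite strand, BRAF and NDUFB2-AS1, overlap 83.4% of the NDUFB2 principal transcript, and the strand setting of the counting is not given in the sources used here.

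NDUFB5, a proximal subunit, had 83.4, 86.3, 85.6 and 85.7 CPM in ERRg libraries, against 96.5, 94.6, 98.8 and 86.7 CPM in GFP libraries. The groups nearly touch, and the TMM value of -0.14 (SE 0.08, edgeR adjusted p = 0.122) was not called. It was called lower without GFP library 1, 2, 3 or 4 in turn, and with offsets it was -0.47 (SE 0.06, adjusted p = 2.89e-06). Over the 23 fits described at the end NDUFB5 was called lower in 9 and higher in 2. The fits that called it higher were those with library totals and with coding genes alone. NDUFB3 and NDUFB9 fell in both fits, at -0.55 and -0.64 with TMM and at -0.30 and -0.54 with offsets. NDUFB10, another disulfide-bonded subunit, and NDUFB8 were at -1.17 and -1.04 with TMM, and at 0.00 (adjusted p = 0.975) and -0.08 (adjusted p = 0.537) with offsets. For NDUFB8 a same-strand gene, AL133352.1, overlaps 71.7% of the principal transcript.

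NDUFC1, a small proximal subunit, had 33.2, 31.7, 39.1 and 34.6 CPM in ERRg libraries, against 46.4, 55.6, 48.6 and 42.4 CPM in GFP libraries. It fell by 0.48 (SE 0.10, edgeR adjusted p = 2.39e-04) with TMM and by 0.24 (SE 0.07, adjusted p = 0.00603) with offsets on the log2 scale. NDUFC2, its neighbour in the enzyme, had 24.1, 23.4, 22.0 and 21.4 CPM in ERRg libraries, against 38.4, 52.5, 43.7 and 39.3 CPM in GFP libraries. The ERRg libraries lie close together and all below GFP, at -0.94 (SE 0.11, adjusted p = 8.54e-08) with TMM and -0.69 (SE 0.09, adjusted p = 8.95e-07) with offsets. The readthrough gene NDUFC2-KCTD14 overlaps 17.1% of the NDUFC2 principal transcript.

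The tested NDUFA genes of the membrane arm had negative fold changes with TMM, and with offsets none of them was called lower. NDUFA1, NDUFA11 and NDUFA13 lay at -0.99, -1.01 and -0.996 with TMM and at 0.08, 0.22 and 0.17 with offsets, where none of them was called. NDUFA11 and NDUFA13 had at most 7.45 CPM in any library, and same-strand genes overlap 67.0% and 44.1% of their principal transcripts. NDUFA10, a subunit with a nucleoside kinase fold, had 97.8, 91.7, 105 and 104 CPM in ERRg libraries, against 109, 104, 107 and 97.6 CPM in GFP libraries. The groups overlap, with -0.07 (SE 0.08, edgeR adjusted p = 0.458) and, with offsets, -0.01 (SE 0.05, adjusted p = 0.900).

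NDUFA8, a disulfide-bonded proximal subunit, had 37.2, 37.9, 48.1 and 38.9 CPM in ERRg libraries, against 53.1, 61.7, 59.8 and 55.1 CPM in GFP libraries. All ERRg libraries lay below all GFP libraries, with library 3 nearest to them. The call was lower with TMM at -0.50 (SE 0.10, edgeR adjusted p = 1.11e-04) and higher with offsets at 0.19 (SE 0.06, adjusted p = 0.00697).

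NDUFA4 was named as a complex I subunit and is now placed in cytochrome oxidase, and NDUFA4L2 is its hypoxia-inducible paralog. NDUFA4 (chr7:10931951-10940256, minus strand) had 177, 168, 200 and 183 CPM in ERRg libraries, against 357, 427, 353 and 340 CPM in GFP libraries. It fell about equally in both fits, by 1.02 (SE 0.09, edgeR adjusted p = 5.50e-09) with TMM and by 1.09 (SE 0.08, adjusted p = 2.76e-09) with offsets on the log2 scale. NDUFA4L2 had 0.987, 0.751, 1.07 and 1.34 CPM in ERRg libraries, against 1.96, 1.59, 1.66 and 2.26 CPM in GFP libraries. At these low counts it was lower with TMM, at -0.85 (SE 0.23, adjusted p = 0.00257), and higher with offsets, at 0.54 (SE 0.23, adjusted p = 0.0398).

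Of the 8 assembly factors 3 (37.5%) were higher and 4 lower with TMM, near the shares of coding genes (29% higher and 50.6% lower), with a median of -0.09. With offsets 4 were higher and 2 lower, with a median of 0.18, against 30.2% of coding genes higher and 41.7% lower. NDUFAF7 is an arginine methyltransferase that acts early in assembly (chr2:37231631-37253403, plus strand). It had 51.8, 49.0, 46.7 and 44.1 CPM in ERRg libraries, against 27.8, 23.9, 26.9 and 26.3 CPM in GFP libraries. ERRg libraries stood well above GFP, by 0.87 (SE 0.09, edgeR adjusted p = 3.49e-08) with TMM and by 0.65 (SE 0.06, adjusted p = 1.10e-08) with offsets on the log2 scale.

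NDUFAF3 and NDUFAF4 work together on the Q module, and their fold changes were opposite. NDUFAF3 (chr3:49020459-49023495, plus strand) had 15.9, 15.7, 20.5 and 19.7 CPM in ERRg libraries, against 55.0, 71.5, 51.4 and 53.2 CPM in GFP libraries. It fell most of the assembly factors, at -1.69 (SE 0.12, edgeR adjusted p = 2.11e-10) with TMM, and at -0.26 (SE 0.06, adjusted p = 0.00118) with offsets. NDUFAF4 had 37.7, 32.9, 28.1 and 30.3 CPM in ERRg libraries, against 21.3, 22.1, 22.0 and 23.6 CPM in GFP libraries. It rose in both fits, by 0.54 (SE 0.10, adjusted p = 7.23e-05) and by 0.24 (SE 0.06, adjusted p = 0.00121). GC content differs between them, at 64.0% for NDUFAF3 and 36.3% for NDUFAF4.

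NDUFAF5 and NDUFAF8 are also partners, NDUFAF5 hydroxylating an arginine of NDUFS7 and NDUFAF8 keeping it stable. NDUFAF5 rose by 0.47 (SE 0.09, edgeR adjusted p = 1.54e-04) with TMM and was at 0.16 (SE 0.07, adjusted p = 0.0669) with offsets. NDUFAF8 had 35.1, 33.1, 41.8 and 37.8 CPM in ERRg libraries, against 84.2, 99.6, 80.6 and 86.6 CPM in GFP libraries. Its groups are far apart on the TMM scale, at -1.25 (SE 0.10, adjusted p = 6.61e-10), and the offsets gave a call in the other direction, at 0.20 (SE 0.06, adjusted p = 0.00594).

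NDUFAF1, which helps to build the membrane arm, had 17.8, 18.9, 17.4 and 17.6 CPM in ERRg libraries, against 21.0, 22.3, 24.0 and 19.6 CPM in GFP libraries. Its call also turned, at -0.28 (SE 0.10, edgeR adjusted p = 0.0147) with TMM and 0.20 (SE 0.07, adjusted p = 0.0247) with offsets, while upper-quartile factors and library totals, which move every gene alike, put it at 0.03 and 0.13. NDUFAF2, a paralog of NDUFA12 that acts before it, fell by 0.37 with TMM and by 0.25 with offsets. NDUFAF6, needed for an early membrane intermediate, had 20.2, 18.7, 19.2 and 18.3 CPM in ERRg libraries, against 18.2, 17.7, 18.9 and 16.8 CPM in GFP libraries. The groups overlap, and neither fit called it (0.10, SE 0.09, adjusted p = 0.364 with TMM, and -0.01, SE 0.06, adjusted p = 0.943 with offsets).

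Most of the 7 complex I subunits encoded in mitochondrial DNA rose, while most of the tested nuclear members fell with TMM alone. Of these core membrane arm subunits 6 rose and 1 fell, in the TMM fit and with offsets alike. Of coding genes 29% were higher and 50.6% lower with TMM, and 30.2% were higher and 41.7% lower with offsets. MT-ND6 rose most with TMM, at 1070, 1210, 1040 and 1220 CPM in ERRg libraries, against 265, 313, 482 and 628 CPM in GFP libraries, a log2 fold change of 1.43 (SE 0.18, edgeR adjusted p = 4.75e-07). With offsets MT-ND4L was highest at 1.59, beside 1.47 for MT-ND6. MT-ND3 alone fell, at 1280, 1370, 1460 and 1310 CPM in ERRg libraries, against 1960, 2670, 2100 and 2400 CPM in GFP libraries, or -0.76 (SE 0.11, adjusted p = 1.71e-06). All mitochondrially encoded genes together took 7.72% ± 0.540 of gene reads in ERRg and 3.98% ± 1.19 in GFP (SD, n = 4 each). The GFP libraries varied widely in these genes, with summed MT-ND levels from 11270 to 23960 CPM, against 27980 to 33170 CPM in ERRg libraries.

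Assembly factors without an NDUF symbol were mostly lower in both fits. Of 12, 9 (75%) were lower and 1 higher with TMM, against 50.6% and 29% of coding genes. With offsets 8 (66.7%) were lower and 1 higher, against 41.7% and 30.2% of coding genes. Their median with offsets was -0.44, beside -0.09 for the NDUF members and 0.18 for the NDUF assembly factors. COA1 was the 1 that rose with TMM, by 0.25 (SE 0.08, edgeR adjusted p = 0.00872), and DMAC2, a distal module factor, fell most with TMM, by 1.31 (SE 0.11, adjusted p = 8.25e-10). DMAC1 was close at -1.28 with TMM, and with offsets it was lowest at -1.67, beside -0.44 for DMAC2. The COA1 call was lost without ERRg library 4 and without GFP library 1, 2 or 3. In the nuclear subunits of complexes II, III and IV and of ATP synthase, 33 of 38 (86.8%) were lower and 2 higher with TMM (median -0.88). Of coding genes 50.6% were lower and 29% higher in that fit. With offsets 25 (65.8%) were lower and 5 higher (median -0.32), against 41.7% and 30.2% of coding genes.

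Of coding genes 50.6% were lower and 29% higher with TMM, and 41.7% were lower and 30.2% higher with offsets. With TMM, complex II had 2 of 4 subunits lower and 1 higher, with SDHA at 0.51 and SDHC at -1.11 on the log2 scale. In complex III 7 of 9 were lower and 1 higher, from UQCRQ at -1.56 to UQCRC2 at 0.47. All 10 complex IV subunits were lower, from COX8A at -2.18 to COX5A at -0.30. Of 15 ATP synthase subunits 14 were lower, from ATP5F1D at -1.61, and the highest, ATP5PB at -0.06 (edgeR adjusted p = 0.511), was not called. With offsets 9 complex IV subunits were lower and none higher, and 9 ATP synthase subunits were lower and 2 higher. The calls of ATP5ME, ATP5PF and CYC1 turned to higher with offsets, at 0.43, 0.41 and 0.15, where TMM gave -1.03, -0.28 and -1.26, and COX8A was at -0.62. The tested complex I members ran from -1.95 to 1.26, and no test compared the lists.

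**Figure D5:**
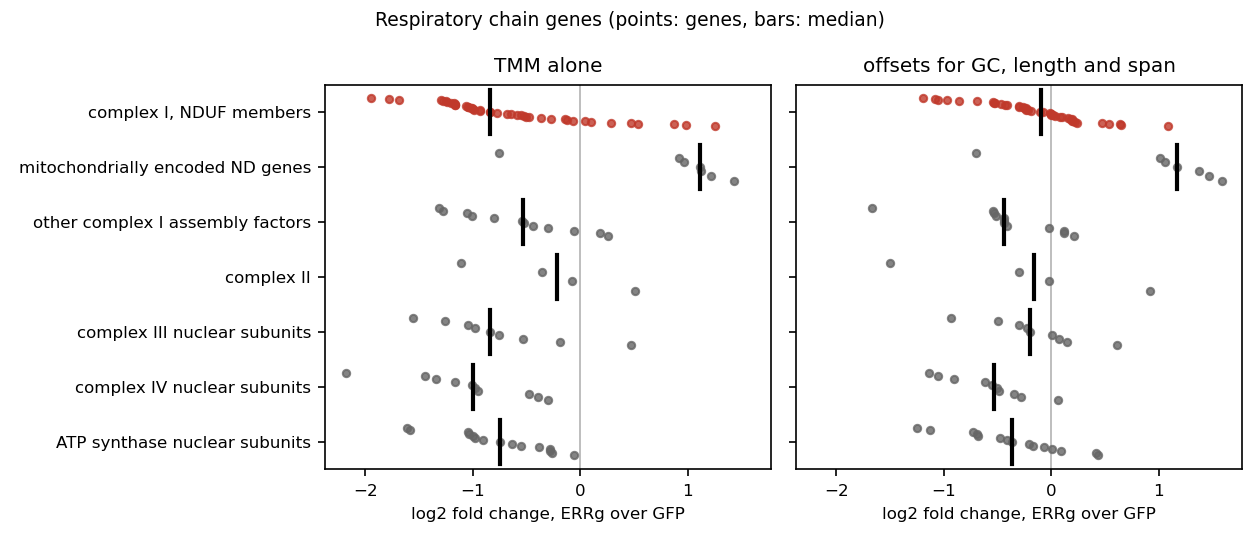
Log2 fold changes, ERRg over GFP, of tested complex I members (red) and of other respiratory chain genes (grey), with TMM alone on the left and with offsets on the right, with a bar at each median. Members had a median of -0.84 with TMM and -0.09 with offsets, and mitochondrially encoded ND genes lie to the right of 0 apart from MT-ND3.

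Over 23 fits that changed the scaling, filter, tool, offsets, replicate block or libraries used, 13 members were lower in every fit. These were NDUFA2, NDUFA4, NDUFAB1, NDUFAF3, NDUFB1, NDUFB2, NDUFB4, NDUFB6, NDUFB11, NDUFC2, NDUFS3, NDUFS5 and NDUFS6. Another 3, NDUFA5, NDUFAF7 and NDUFV2, were higher in every fit. The share of all genes that kept a single direction in every fit was not counted, so these counts have no background beside them. In the main fit alone 74.7% of all genes tested were called. All of these fits draw on the same 8 libraries. The test against a log2 fold change of 1 and the fit with the share of reads outside exons as a covariate are not among these 23. The test against 1 (edgeR, adjusted p under 0.05) called 8 members lower and 0 higher, with 12 lower and 1 higher at an unadjusted p under 0.05. The fit with the covariate (edgeR) called 0 members, and 0 at an unadjusted p under 0.05, where 1082 of 21993 genes passed. That covariate separates the groups without overlap, so it leaves little of the comparison.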

How the data were processed

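A table with whole read counts per gene, not normalized, was deposited by the authors for the 8 libraries. The submitters' processing notes name the build GRCh38 and the tools HTSeq 0.11.3, STAR 2.7.8a, Trim Galore 0.6.6, DESeq2 and CASAVA. Which annotation release and strand setting were used is not given in the sources used here. Summary lines that name no gene (reads outside exons, in more than 1 gene or aligned more than once) did not enter library sizes or tests. Over 1169 pairs of an antisense and a coding gene, the median antisense density was 3.00% to 5.20% of the coding density by library.

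Symbols matched for 60463 of 67060 identifiers, and positions, GC content and lengths came from GENCODE 29 (58488 identifiers). Of 41858 genes with a count, 21993 passed filterByExpr. The main fit was edgeR 4.0.16 under R 4.3.3, a two-sided quasi-likelihood test on group alone with TMM factors and p-values adjusted by Benjamini-Hochberg (threshold 0.05). The second fit added per-library offsets from smooth terms (mgcv 1.9.3, basis size 8) in GC content, log2 length and log2 span over 13426 coding genes. The edgeR script was tested on simulated data. Alternatives included DESeq2 1.42.0 and limma-voom (limma 3.58.1). Before TMM scaling, a gene at 1 count per M gene reads rested on about 21.02 reads in the shallowest library, ERRg library 1. With TMM factors, 19 reads of NDUFA7 in that library stood at 0.782 CPM. Replicate numbers did not pair the samples.

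The members, lists and tests were chosen with earlier results of these data known. Full values are given for the core subunits, the extremes of each class, NDUFA4 and NDUFA4L2, and members whose call turned with offsets; members without a call are named with values, and from other lists the highest and lowest are named. Other members may be named with any of their values. The own values of a tested member, which enters the counts and medians, are not reported here. TUBB, FLOT1, CYC1, ATP5ME, ATP5PF, DMAC1 and MT-ND4L were named after their values were seen. Promoter sequences are RefSeq's on GRCh38.p14.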

Additional observations from a re-analysis of the deposited data

Results flagged for a closer look

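In 10 of 86 groups of 4 libraries checked, a library stood apart from the other 3 of its group for a tested member by Dixon's criterion, where chance gives about 4.3. In ERRg it was replicate 3 each time. Its level was 14.4 CPM for NDUFA2 (others 10.3 to 10.9), 48.1 for NDUFA8 (37.2 to 38.9), 77.1 for NDUFAB1 (64.8 to 65.5), 46.0 for NDUFB1 (40.4 to 41.2), 109 for NDUFS5 (all others 104) and, below the rest, 21.8 for NDUFAF5 (23.8 to 24.2). In GFP it was replicate 2 each time. Its level was 34.3 CPM for NDUFA2 (others 25.3 to 26.7), 150 for NDUFAB1 (123 to 125), 146 for NDUFB4 (116 to 120) and 36.3 for NDUFS4 (31.5 to 32.2). These libraries also had the smallest share of reads outside annotated exons in their groups, 45.5% in ERRg replicate 3 and 16.2% in GFP replicate 2, whose part in these values was not tested. Without either library, no member's call in the TMM fit changed except those of NDUFA7, which was lost without each of them, and NDUFB5, which was gained without GFP replicate 2.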

How the results depend on the processing

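With each library left out in turn, 5 to 6 members were higher and 32 to 35 lower with TMM, and 7 to 10 higher and 19 to 21 lower with offsets. The same fits gave 7611 to 8518 genes higher and 7755 to 8247 lower, and 0 to 1 other assembly factors higher. With the replicate number as a block, 6 members were higher and 32 lower; same-number correlations of deviations were 0.11, -0.26, -0.16 and -0.08, and 1 of 8 libraries correlated best with its own number, so the numbers do not pair the samples. The block with offsets gave 10 members higher and 21 lower, 3936 genes higher and 5 other respiratory genes higher.

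Members called higher numbered 11 with library totals and 10 with coding genes alone or with offsets. Members called lower numbered 21 with offsets, and with offsets from the principal transcript, chosen after the data were seen, 21 were lower and 4 higher. Against a log2 fold change of 1, 0 members were higher and 8 lower (1692 genes higher and 2302 lower), and with the covariate 0 members and 6 genes higher and 2 lower. Of all genes, 5471 were higher with coding genes alone, 4061 with offsets and 4266 with offsets for GC alone; these 3 fits test fewer genes. Other assembly factors called higher were 3 with upper-quartile factors, 3 with library totals (5 lower), 3 with coding genes alone, 2 with a minimum of 1 CPM and 0 without a filter. Other respiratory genes called higher were 4 with upper-quartile factors, library totals or coding genes alone and 5 with offsets. Without mitochondrially encoded genes 0 MT-ND genes were tested or called higher or lower. The summed level was 2246 CPM in ERRg and 2843 in GFP with library totals, and 2434 in ERRg and 2960 in GFP with mitochondrial genes out of the library size. The core motif raised the promoter share to 22.5%.

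Of 945 member values under alternatives, 814 kept direction and call, 45 lost and 24 gained the call, 50 changed sign with a call in at least 1 of the fits, and 12 changed sign with a call in neither. With coding genes alone NDUFA10 was at 0.24, NDUFAF1 at 0.04 and NDUFB5 at 0.17; with library totals NDUFA10 at 0.33, NDUFAF1 at 0.13, NDUFAF2 at 0.034, NDUFB5 at 0.26 and NDUFS4 at 0.28; and with upper-quartile factors NDUFA10 at 0.23 and NDUFAF1 at 0.03. With offsets for GC alone NDUFA10 was at 0.13, NDUFA11 at 0.17, NDUFA13 at 0.14, NDUFA4L2 at 0.40, NDUFA7 at 0.22, NDUFA8 at 0.005, NDUFAF1 at 0.033, NDUFAF4 at -0.062 and NDUFS7 at 0.018. With offsets for GC, length and span NDUFA1 was at 0.079, NDUFA11 at 0.22, NDUFA13 at 0.17, NDUFA4L2 at 0.54, NDUFA7 at 0.64, NDUFA8 at 0.19, NDUFAF1 at 0.20, NDUFAF8 at 0.20, NDUFS7 at 0.03 and NDUFV1 at 0.012. With the block as well, NDUFA1 was at 0.08, NDUFA11 at 0.23, NDUFA13 at 0.19, NDUFA4L2 at 0.53, NDUFA7 at 0.65, NDUFA8 at 0.19, NDUFAF1 at 0.20, NDUFAF8 at 0.20, NDUFS7 at 0.02 and NDUFV1 at 0.013. With offsets from the principal transcript NDUFA11 was at 0.26, NDUFA13 at 0.15, NDUFA4L2 at 0.45, NDUFA7 at 0.37, NDUFA8 at 0.10, NDUFAF6 at -0.19, NDUFAF8 at 0.037, NDUFB10 at 0.079, NDUFB9 at 0.017, NDUFS7 at 0.26 and NDUFS8 at 0.045. The cause of these changes was not tested. Low counts limit NDUFA3, NDUFA4L2, NDUFA7, NDUFA11, NDUFA13 and NDUFS7.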
